A study of Saccharomyces cerevisiae with 42 samples.

Results

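The 34 genes described here encode the proteasome of budding yeast: the 14 subunits of the 20S core particle, 18 subunits of the 19S regulatory cap, the maturation factor UMP1 and the alternative activator BLM10. They are listed by gene name, with earlier results of these data known. All 34 were found among the 5656 genes that could be tested, each represented by the probe set with the highest mean signal. The signal of every member lay well within the range of the arrays, with UMP1 the dimmest at 5.82 to 7.27 and PRE6 among the bright ones at 9.56 to 11.33 on the log2 scale.

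RNA was measured on 42 Affymetrix arrays of Saccharomyces cerevisiae, with 2 replicates in each of 21 groups made of 3 strains and 7 times. Cultures in log phase in the rich medium YPD were moved to 39 C, and the heated times are 5, 10, 15, 20, 25 and 30 min. The parental strain is labelled JK939a, with HMLa, the mating type MAT α and the alleles his4, trp1, rme1, ura3-52 and leu2-3 112, which both deletion strains also carry. One deletion strain lacks DPL1 (dpl1:KanMX), a lyase that splits phosphorylated sphingoid bases, which are lipid signals, and the other lacks both LCB4 and LCB5 (lcb4::KanMX lcb5::KanMX), the kinases that make those phosphorylated bases. The deletion strains therefore also differ from the parental strain by the KanMX marker, and the sources used here do not say whether more than 1 clone of each was used. The labels do not say whether the 2 replicates of a group were separate cultures, so the p-values rest on a spread between arrays that may be technical.

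The proteasome is the chambered protease that destroys proteins tagged with ubiquitin. Its 20S core is a stack of rings: the outer alpha rings gate the entrance, and the inner beta rings hold the catalytic sites. The 19S cap sits on the alpha ring, where the ATPases of its base unfold the substrate and the deubiquitinase of its lid cuts the ubiquitin chain off. In yeast the genes of both particles share a transcription factor, RPN4, which is itself a very short-lived substrate of the proteasome, so that a loss of proteasome capacity leaves more RPN4 and more proteasome gene transcription. Heat unfolds proteins and raises the demand on this system, and the RPN4 gene is itself a target of heat shock and stress activators.

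The labels of the deletions held in the signals of the deleted genes. Over the 7 times DPL1 differed by -6.14 ± 0.12 (log2, SE) between the dpl1 deletion and the parental strain, LCB4 by -1.85 ± 0.10 and LCB5 by -3.99 ± 0.12 between the double deletion and the parental strain (limma, adjusted p = 1.23e-23, 3.26e-13 and 1.3e-18). One library stood apart from its label: the first parental array before heat read 8.15 on an unannotated probe set that read at least 11.8 on the 28 deletion arrays and at most 4.27 on the other 13 parental arrays. Results that use this array are given below with and without it where it matters. The 2 replicate numbers also differed as sets. SRB4, a gene with separate probe sets for the 3' and 5' ends of its transcript, had a 3' minus 5' difference of 0.52 ± 0.27 (log2, SD, n = 21) on the arrays of replicate 1 and 1.97 ± 0.54 on those of replicate 2. By strain that difference averaged 1.22 for the parental arrays, 0.99 for the dpl1 deletion and 1.51 for the double deletion, and its part in the results was not tested.

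The first question of the design is how the proteasome genes change with time at 39 C. The changes came late and were modest in size, and 28 of the 34 genes passed the test at 30 min (27% of all genes). Averaged over the 3 strains, the 34 genes had a median change from the time before heat of -0.08 (log2) after 5 min and 0.14 after 10 min. It then rose to 0.43 after 15 min and 0.62 after 20 min, was 0.55 after 25 min and reached 0.70, or 1.62-fold, after 30 min. Over all genes the median change stayed between -0.07 and -0.01 at every time. The values are on a scale on which every array has nearly the same distribution, so a change shared by all transcripts would not be seen, and in bulk RNA a change in the mix of cells and a change of RNA per cell cannot be told apart.

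A gene was called at an adjusted p under 0.05 in limma, a linear model fitted across all genes, with Benjamini-Hochberg adjustment over the 5656 genes. No member was called higher at 5 min, when 14.6% of all genes were, and at 10 min only the lid deubiquitinase RPN11 was, against 24.7% of all genes. After 15 min 20 of 34 members were called higher (29.6% of all genes). The count was 28 after 20 min (30%), 26 after 25 min (28.4%) and 28 after 30 min (27%). None was called lower at any of these times. With the replicate number as a block in the fit, PRE9 (-0.43, adjusted p = 0.0381) and RPN10 (-0.32, adjusted p = 0.0457) were called lower at 5 min (25.2% of all genes in that fit), and 4 members in place of 1 were called higher at 10 min (PRE10, PRE3, RPN3 and RPN11; 29.5% of all genes). Both counts are below the share of all genes. Without the first parental array before heat, or the first of the double deletion at 10 min, 2 members were called at 10 min. The count at 15 min rested on few arrays of the double deletion: it was 8 without its second array at 15 min and 12 without its first array before heat, and the count at 25 min was 17 without that array before heat. All 6 times were compared with the same 6 arrays before heat.

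The changes of the members lay closer together than those of all genes, though they still differed in size. At 30 min the 34 changes ran from 0.23 for the ubiquitin receptor RPN10 to 1.02 for the alpha subunit SCL1, with a standard deviation of 0.19 over the members against 1.12 over all genes. Every member had a positive change at 15, 20, 25 and 30 min. At 5 min 26 of 34 had a negative change, as did 3243 of all 5656 genes. The median change at 5 min was -0.08 for the members and -0.07 for all genes. For 26 members 5 min was the lowest of the 7 times (13.3% of all genes). The highest time was 30 min for 25 members, 20 min for 6 and 25 min for 3, while 10.9% of all genes were highest at 30 min and 40% were highest before heat.

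**Figure D1:**
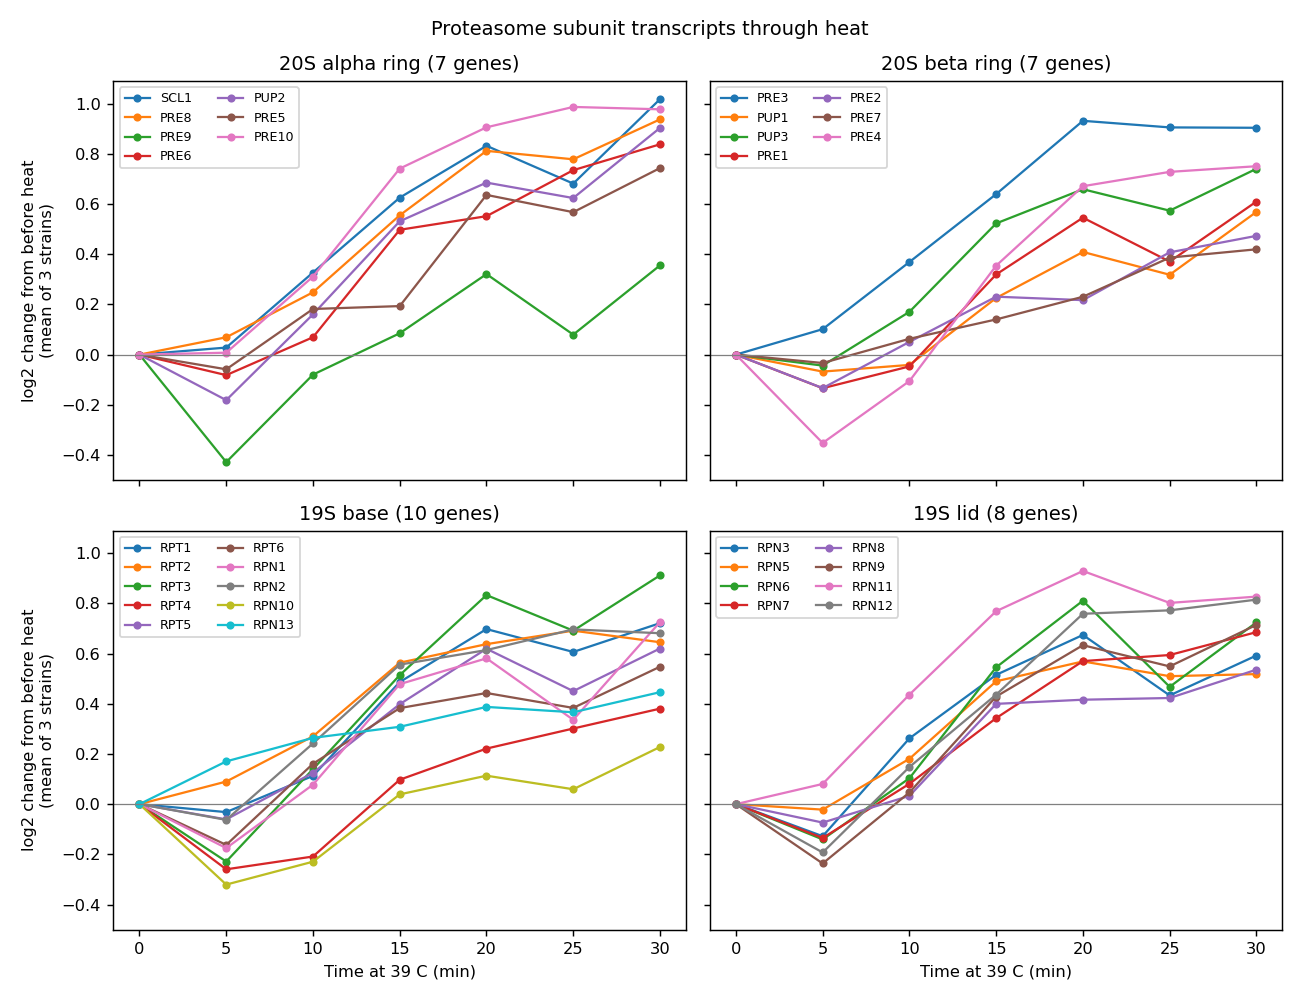
Change from the time before heat (log2, 3 strains averaged) of each of the 32 core and cap subunits against time at 39 C in minutes, with 1 line per gene and the panels split by subcomplex. The lines lie near or below 0 at 5 min and between 0.23 and 1.02 at 30 min.

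The steps between the heated times do not use the arrays before heat. From 5 to 15 min 24 members were called higher (19.5% of all genes), with a median step of 0.52 (log2), and 15 were called without the second array of the double deletion at 15 min. From 15 to 30 min only the base ATPase RPT3 was called, by 0.40 ± 0.13 (SE, adjusted p = 0.0413), against 10.7% of all genes, and 0 members were called lower (3.77%). All 34 members had a positive step over that interval, with a median of 0.26. With the replicate block 5 members were called there (PRE5, PUP1, RPT3, RPN12 and UMP1), close to the 15.2% of all genes in that fit, and without one of 8 arrays 0 members were called. These arrays were the second at 15 min in the parental strain and in the dpl1 deletion, the first at 15 min in the double deletion, the second parental array at 30 min and both arrays of each deletion strain at 30 min.

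The mean heat response, the mean of the 6 heated times minus the time before heat averaged over the strains, sets 36 heated arrays against 6. By this measure 26 of 34 members were called higher (30.7% of all genes) and none lower (35.4% of all genes). The median response of the members was 0.38 (log2), or 1.30-fold, and that of all genes -0.04. The count was 14 without the first array of the double deletion before heat, and 5 when every array was centred on its bacterial hybridisation controls, a scale on which the median of all genes was 0.21 and 1260 genes were called higher and 790 lower in place of 1738 and 2005.

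In the alpha ring, which forms the gated entrance of the core, 6 of 7 subunits were called in the mean heat response, with a median of 0.45. PRE10, an alpha subunit, was at 8.93 and 9.01 (log2 signal, replicates 1 and 2) before heat in the parental strain, at 8.22 and 8.46 in the dpl1 deletion and at 8.56 and 8.89 in the double deletion. After 30 min it was at 9.62 and 9.94, at 9.45 and 9.99, and at 9.18 and 9.76 in the same order. All 6 arrays at 30 min lay above all 6 before heat. Its mean response of 0.66 ± 0.12 (SE, adjusted p = 2.85e-05) was the highest of the 34 members, and its change at 30 min was 0.98 ± 0.16 (adjusted p = 7.12e-06).

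SCL1, the subunit next in the ring's order of response, ran from 8.07 to 9.16 before heat (median 8.74, 6 arrays) and from 9.25 to 10.25 after 30 min (median 9.68). These ranges do not overlap either. Its change of 1.02 ± 0.20 at 30 min (adjusted p = 8.7e-05) was a 2.03-fold rise, and its mean response was 0.59 ± 0.15 (adjusted p = 0.00136). PRE9, the alpha subunit that yeast can live without, was the one alpha subunit not called. It was at 8.02 to 8.55 before heat, at 7.27 to 8.35 after 5 min and at 7.80 to 9.19 after 30 min, so the 3 ranges overlapped. The mean response of PRE9 was 0.06 ± 0.16 (adjusted p = 0.767) and its change at 30 min 0.36 ± 0.20 (adjusted p = 0.141, and 0.0326 without the first array of the double deletion at 30 min). The other 4 alpha subunits, PRE8, PRE6, PUP2 and PRE5, were called with mean responses of 0.38 to 0.57.

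In the beta ring 4 of 7 subunits were called, with a median mean response of 0.28. Of the 3 subunits that carry the catalytic sites, PRE3, the caspase-like one, responded most. PRE3 was at 7.57 to 8.51 before heat (median 8.24, 6 arrays) and at 8.42 to 9.38 after 30 min (median 9.08). One array pair overlapped narrowly: the first array of the double deletion at 30 min read 8.42, below the 8.51 of its second array before heat. The mean response of PRE3 was 0.64 ± 0.18 (adjusted p = 0.00291), with 0.90 ± 0.24 at 30 min (adjusted p = 0.00197).

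PUP1, the trypsin-like subunit, was at 9.06 to 9.71 before heat and at 9.64 to 10.16 after 30 min. Its mean response was 0.24 ± 0.09 (adjusted p = 0.0312), a call that was lost without the first array before heat of any of the strains (adjusted p = 0.108, 0.145 and 0.175), and its change at 30 min was 0.57 ± 0.12 (adjusted p = 0.000341). PRE2, the chymotrypsin-like subunit, was at 9.29 to 9.97 before heat and at 9.45 to 10.64 after 30 min, and the ranges overlapped. Its mean response was 0.21 ± 0.18 (adjusted p = 0.308). At 30 min PRE2 differed by 0.47 ± 0.23 (adjusted p = 0.0852), with an adjusted p of 0.011 with the replicate block and of 0.0355 to 0.0423 without the first array at 30 min of any one strain. The catalytic subunits thus spanned most of the range of the ring, but the differences between them were not tested.

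Among the structural beta subunits, PUP3 was at 9.46 to 9.93 before heat and at 9.97 to 10.95 after 30 min, with no overlap. Its mean response was 0.44 ± 0.13 (adjusted p = 0.00554). PRE4 was at 8.35 to 8.63 before heat and at 8.89 to 9.92 after 30 min, again with no overlap, and its mean response was 0.34 ± 0.12 (adjusted p = 0.0185). That call was lost without the second array before heat of the parental strain (adjusted p = 0.0662) or the dpl1 deletion (0.0511), or without the first of the double deletion (0.0655). PRE7 was lowest in the ring, at 0.20 ± 0.12 (adjusted p = 0.158), with a change at 30 min of 0.42 ± 0.16 (adjusted p = 0.0308), which was above the threshold without any 1 of 6 of the arrays compared (adjusted p of 0.0585 to 0.109). PRE1 was at 0.28 ± 0.14 (adjusted p = 0.0808, and 0.0363 with the replicate block).

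In the base of the cap, whose ring of ATPases drives unfolding, 7 of 10 subunits were called and the median mean response was 0.35. The ATPase RPT3 was at 7.48 and 7.79 before heat in the parental strain and at 8.69 and 9.29 after 30 min. In the dpl1 deletion it went from 7.75 and 7.79 to 8.52 and 8.76, and in the double deletion from 7.82 and 8.22 to 8.42 and 8.65. All 6 arrays at 30 min lay above all 6 before heat. The mean response of RPT3 was 0.48 ± 0.10 (adjusted p = 0.000171) and its change at 30 min 0.91 ± 0.13 (adjusted p = 1.63e-06).

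RPT2, the ATPase that helps to open the gate of the core, had nearly the same mean response with a larger error, 0.48 ± 0.20 (adjusted p = 0.0327). RPT2 read higher on replicate 2 than on replicate 1 in all 21 groups, by 0.60 on average, and its call was lost without the first parental array (adjusted p = 0.196), the first array of the double deletion (adjusted p = 0.153) or either array of the dpl1 deletion before heat. The other ATPases RPT1, RPT5 and RPT6 were called at 0.29 to 0.43, and RPT4 was at 0.09 ± 0.14 (adjusted p = 0.597). Of the 2 large scaffold subunits, RPN2 was at 0.45 ± 0.11 (adjusted p = 0.000754) and RPN1, which also binds ubiquitin and its shuttle proteins, at 0.34 ± 0.15 (adjusted p = 0.0464).

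The ubiquitin receptors RPN10 and RPN13 were among the members not called. RPN10 was at 9.17 to 9.62 before heat (median 9.45, 6 arrays), at 8.87 to 9.31 after 5 min (median 9.11) and at 9.35 to 9.88 after 30 min (median 9.73). Its mean response of -0.02 ± 0.10 (adjusted p = 0.882) was the lowest of all 34, and its change at 30 min was 0.23 ± 0.13 (adjusted p = 0.144). Its step from 5 to 15 min was 0.36 and was called (adjusted p = 0.0317), while its changes from before heat were 0.04, 0.11 and 0.06 at 15, 20 and 25 min, well below the medians of the members.

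RPN13 had 1 array before heat far from the others. It was at 9.36 and 8.18 before heat in the parental strain, at 9.42 and 9.47 in the dpl1 deletion and at 9.54 and 9.67 in the double deletion. The second parental array before heat was thus more than 1 log2 unit below the other 5. In the double deletion the first heated arrays of RPN13 ran from 9.63 to 9.80 and the second from 8.95 to 9.45. Its mean response was 0.32 ± 0.15 (adjusted p = 0.0594, and 0.0254 with the replicate block), and its correlation with the mean of the other members over the 21 group means was the lowest, at 0.556.

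In the lid, which holds the deubiquitinase, 7 of 8 subunits were called and the median mean response was 0.38. RPN11, the deubiquitinase itself, was at 9.06 and 8.97 before heat in the parental strain, at 9.55 and 9.43 after 10 min and at 9.83 and 10.27 after 30 min. In the dpl1 deletion it was at 9.20 and 8.65, then 9.09 and 9.38, then 9.57 and 10.01, and in the double deletion at 8.95 and 9.13, then 9.22 and 9.90, then 9.25 and 9.99. It was the earliest member called, at 0.44 ± 0.15 after 10 min (adjusted p = 0.018), a call lost without the second array of the dpl1 deletion before heat or of either deletion strain at 10 min. The mean response of RPN11 was 0.64 ± 0.12 (adjusted p = 3.23e-05), and its 6 arrays at each of 15, 20, 25 and 30 min lay above all 6 before heat.

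RPN12, a lid subunit, had a median of 7.73 before heat and 8.55 after 30 min (6 arrays each), and its lowest array at 30 min, at 8.01, lay just above its highest before heat. Its mean response was 0.46 ± 0.11 (adjusted p = 0.000633). RPN8, the partner of RPN11 in the lid, was the lowest of the lid in the mean response at 0.29 ± 0.12 (adjusted p = 0.0326), and this call was lost without the first parental array, the first array of the double deletion or either array of the dpl1 deletion before heat. RPN3, RPN6, RPN7 and RPN9 were called at 0.36 to 0.42. RPN5 had a response of the same size with a larger error, 0.37 ± 0.19 (adjusted p = 0.0785), and was called with the replicate block (adjusted p = 0.000335).

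UMP1, the chaperone that is built into the maturing core and then becomes its first substrate, was at 5.82 to 6.53 before heat (median 6.19, 6 arrays) and reached a median of 7.19 and a highest array of 7.27 after 30 min. Only the first dpl1 deletion array at 30 min fell inside the range before heat. The mean response of UMP1 was 0.43 ± 0.13 (adjusted p = 0.00438), with 0.82 ± 0.17 at 30 min (adjusted p = 0.000158). BLM10, the activator that can take the place of the cap on the core, was at 7.83 to 8.06 before heat, at 7.45 to 7.94 after 5 min and at 8.14 to 8.75 after 30 min. Its 6 arrays at 30 min lay above all 6 before heat, and its mean response was 0.26 ± 0.11 (adjusted p = 0.0378), a call that was lost without any single one of the 6 arrays before heat (adjusted p of 0.0588 to 0.0977).

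**Figure D2:**
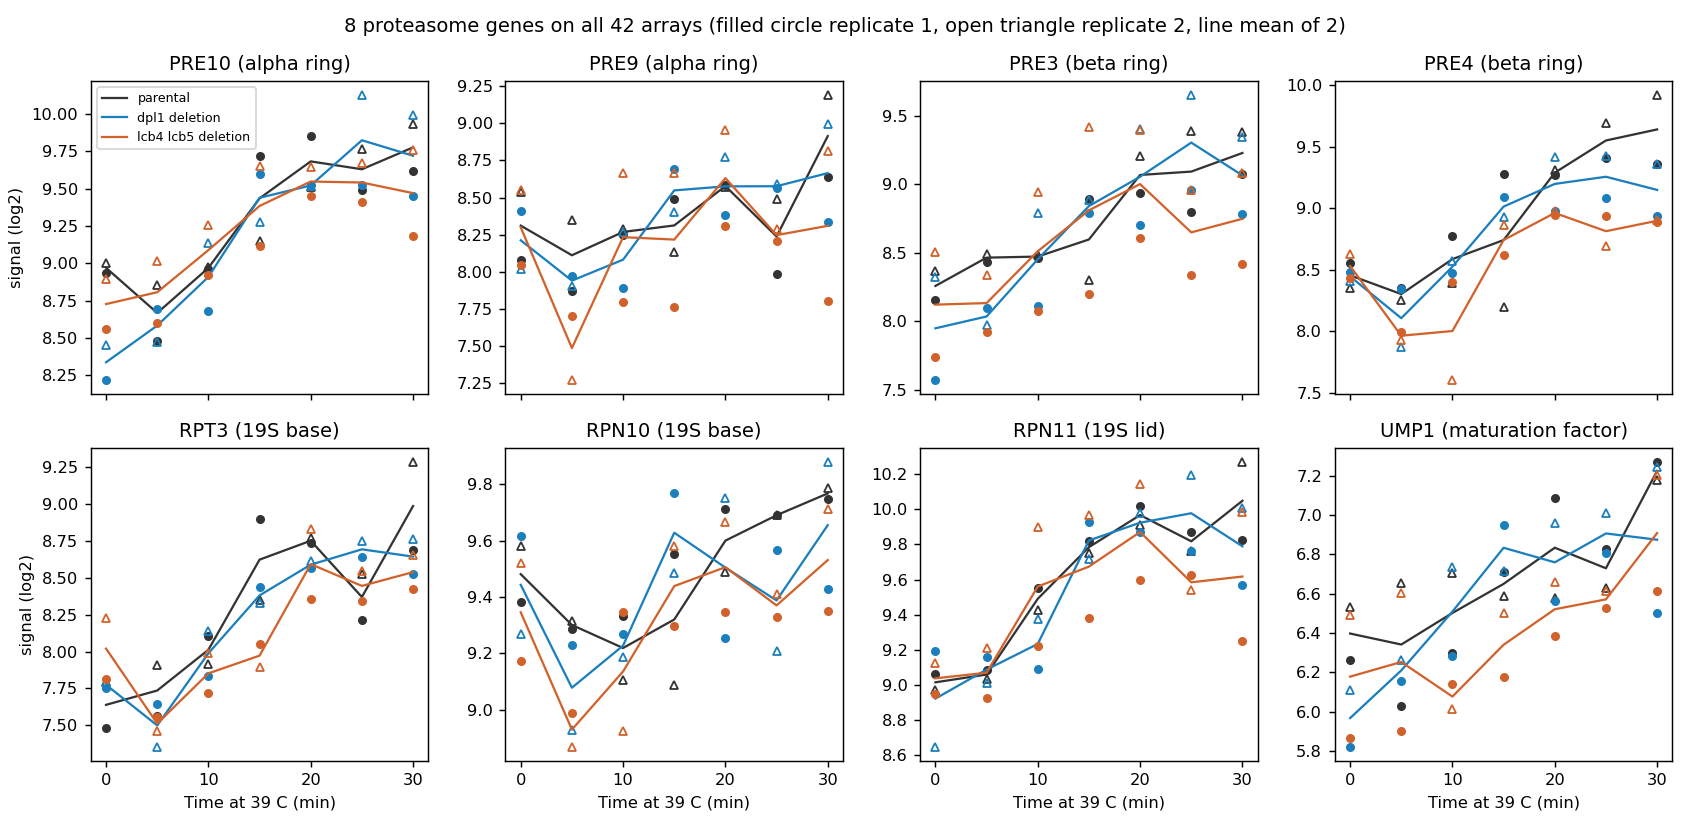
Log2 signal of 8 proteasome genes on all 42 arrays against time at 39 C in minutes, coloured by strain, with filled circles for replicate 1, open triangles for replicate 2 and lines through the mean of 2. PRE10, RPT3 and RPN11 climb after 5 min in every strain, while RPN10 dips at 5 min and ends between 9.35 and 9.88.

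Counts of arrays that do not overlap needed no model. The 6 heated arrays of a time all lay above the 6 before heat for 0 members after 5 min (9.92% of all genes) and 0 after 10 min (15.6%). They did so for 3 members after 15 min (18%), 14 after 20 min (19.8%), 8 after 25 min (17.7%) and 13 after 30 min (16.2%). The 3 at 15 min were PRE6, PRE10 and RPN11. PRE6, PRE10, RPN11 and BLM10 were the 4 members whose 8 arrays at 15 to 30 min lay above both arrays before heat in each of the 3 strains, which 14.4% of all genes did.

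The second question is whether core and cap move together. They did so closely. In the mean heat response 10 of 14 core subunits and 14 of 18 cap subunits were called, with medians of 0.41 and 0.37 (log2). At 30 min 12 of 14 and 14 of 18 were called, with medians of 0.75 and 0.66. On each array the mean change of the core minus the mean change of the cap was taken from that strain's arrays before heat. Averaged over the 6 arrays of a time this difference was 0.01 ± 0.10 (SD) after 5 min, -0.00 ± 0.12 after 10 min and -0.03 ± 0.14 after 15 min. It was 0.02 ± 0.08 after 20 min, 0.07 ± 0.06 after 25 min and 0.10 ± 0.04 after 30 min.

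The difference was small beside the change of either particle, which at 30 min was 0.73 ± 0.36 (SD, n = 6) for the core and 0.63 ± 0.34 for the cap. At 25 and 30 min all 12 arrays had the core ahead of the cap, by 0.01 to 0.15. Before heat the 2 arrays lay at -0.10 and 0.10 of their mean in the dpl1 deletion. They lay at 0.02 and -0.02 in the parental strain and at 0.01 and -0.01 in the double deletion. At 30 min the differences were 0.15 and 0.10 in the parental strain, 0.08 and 0.14 in the dpl1 deletion and 0.07 on both arrays of the double deletion. A pair of arrays gives a poor measure of spread, and whether these differences exceed it was not tested. The arrays with the core furthest behind were the second parental array at 15 min, at -0.30, and the second array of the double deletion at 10 min, at -0.22. These were also the arrays with the highest SRB4 3' minus 5' difference of all 42, at 2.44 and 3.73 (log2), and the part of this sign of RNA quality in the core and cap difference was not tested. By strain the mean over 12 heated arrays was 0.48 for the core and 0.45 for the cap in the parental strain. It was 0.51 and 0.45 in the dpl1 deletion, and 0.18 for both in the double deletion.

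**Figure D3:**
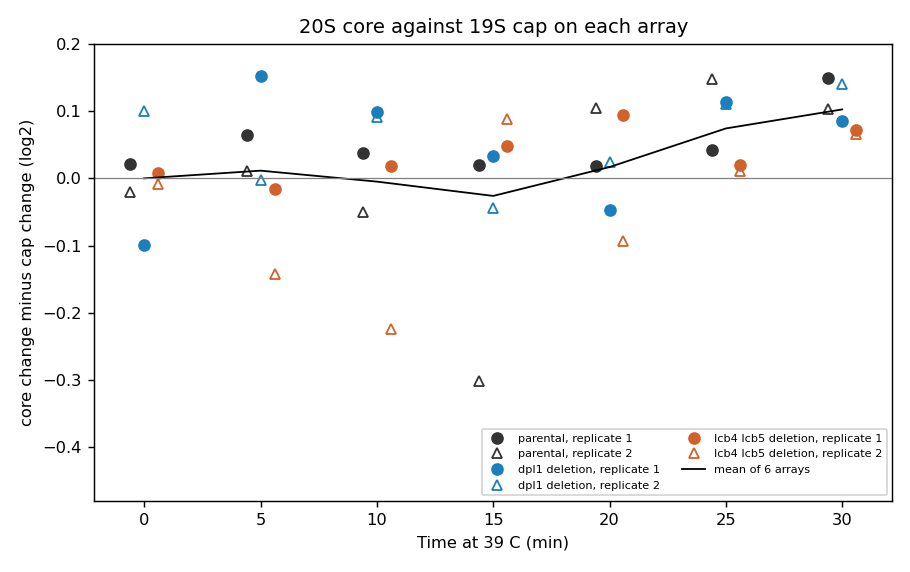
Mean change of the 14 core subunits minus mean change of the 18 cap subunits (log2) on each of the 42 arrays against time at 39 C in minutes, coloured by strain, with the line through the mean of the 6 arrays of a time. The points scatter about 0 until 20 min, and all 12 at 25 and 30 min lie between 0.01 and 0.15.

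The members also followed each other in the course of each strain. Over the 21 group means the correlation (Pearson's r) of a member with the mean of the other members ran from 0.556 for RPN13 to 0.978 for the lid subunit RPN7, with a median of 0.901, and it was above 0.7 for 32 of 34. Of the genes outside the complex 12.2% had an r above 0.7 with the members' mean. The group means share the arrays and the 7 times, so these values are a description. The 10 genes outside the complex most like the members were GCG1 (r = 0.963), SBA1 (0.955), SDH9 (0.935), OTU1 (0.934), UFD1 (0.933), FRQ1 (0.932), YKE4 (0.931), GTT1 (0.93), UBX4 (0.929) and GRE1 (0.925). SBA1 is a co-chaperone of Hsp90, UFD1, OTU1 and UBX4 are partners of the CDC48 segregase, and GTT1 is a glutathione transferase. Their mean heat responses ran from 0.34 for FRQ1 to 3.78 for GRE1, so a like shape came with sizes from about that of the members to far above it.

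The third question is whether the response depends on the strain. In the parental strain 12 members were called higher in the mean heat response (21.8% of all genes), with a median of 0.44. In the dpl1 deletion 14 were (20.6%), with a median of 0.46. In the double deletion only PRE10 (0.58 ± 0.21, adjusted p = 0.0244) and RPN11 (0.53 ± 0.20, adjusted p = 0.0384) were (19.1%), with a median over the 34 members of 0.20. With the replicate block within strains the 3 counts were 21, 23 and 5, against 27.5%, 26.4% and 24.2% of all genes, so the count in the double deletion was below the share of all genes. Each count rested on the arrays before heat: without the first or the second of them it was 4 or 3 in the parental strain and 4 or 3 in the dpl1 deletion, and in the double deletion 0 or 1. In the double deletion it was also 1 without the second array at 5, 10, 15, 20 or 30 min.

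The smaller response of the double deletion was seen in most members and was not called in any. The double deletion had the lowest mean response of the 3 strains for 30 of 34 members, against 34.8% of all genes. In a test of the difference in heat response between strains, over all heated times jointly, 0 members were called (limma, 0.0177% of all genes), and 0 were called in each of the 3 pairwise differences of the mean response. Of all genes 0.0177% were called in that difference for the double deletion against the parental strain. The share was 0% for the dpl1 deletion against the parental strain and 0% for the double deletion against the dpl1 deletion. At an unadjusted p under 0.05 there were 3 members for the double deletion against the parental strain, where the median difference was -0.20, and 2 for the dpl1 deletion against the parental strain, where it was 0.04. For the double deletion against the dpl1 deletion there were 0, and the median difference was -0.32. Of all 5656 genes 171, 111 and 172 had an unadjusted p under 0.05 in these 3 differences, in the same order. The 95% intervals of the members' differences had a median half-width of 0.628 and were at most ± 0.989. In simulated data the joint test found 0% of differences of 1 (log2) and 51.5% of differences of 2.

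This pattern turned on which array before heat was used. The first array of the double deletion before heat gave a median member response of 0.41 in that strain, with 33 of 34 members positive, and the second gave -0.06, with 11 positive. With the first array alone the double deletion was the lowest strain for 14 members (27.6% of all genes), and with the second alone for 32 (44.9%). In the parental strain the first array gave a median of 0.54 and the second 0.27, and in the dpl1 deletion the arrays gave 0.46 and 0.47. Within replicate 1 alone the member medians were 0.49, 0.37 and 0.29 for the parental strain, the dpl1 deletion and the double deletion, and within replicate 2 alone 0.34, 0.59 and 0.12. This look at single arrays was added after the values were seen.

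**Figure D4:**
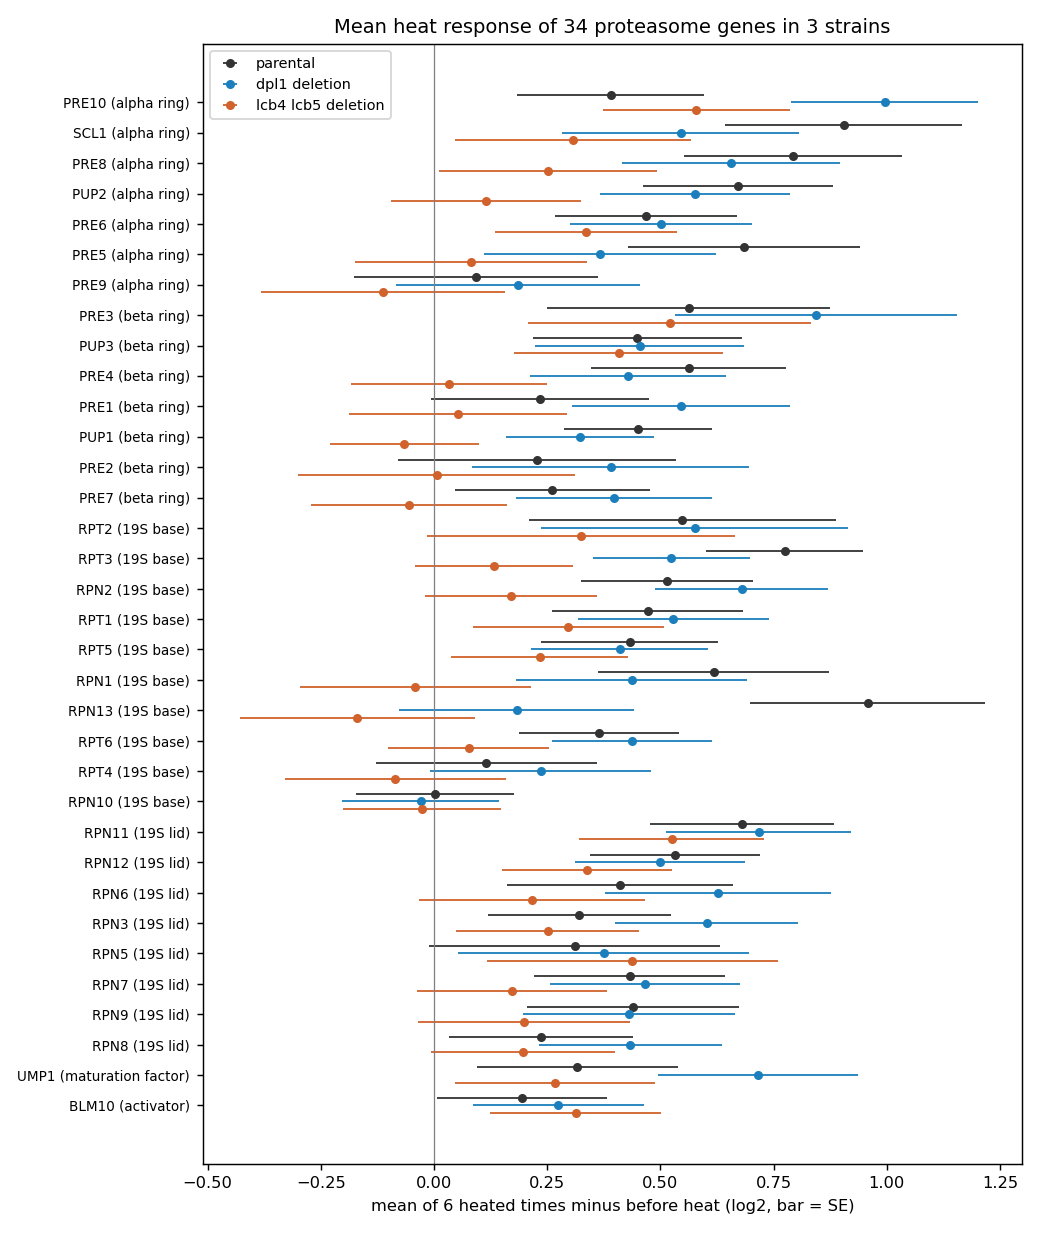
Mean heat response (log2, mean of 6 heated times minus before heat) of each of the 34 proteasome genes in each strain, with bars of 1 SE and the genes grouped by subcomplex. The double deletion is the lowest of the 3 strains for 30 of 34 genes, and most bars overlap.

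The strains can also be set against each other at 30 min with no use of the arrays before heat. There 33 of 34 members had a lower level in the double deletion than the parental strain had, with a median difference of -0.39 (log2). For the dpl1 deletion 31 of 34 were lower, with a median difference of -0.21. Both comparisons share the 2 parental arrays at 30 min. Of all genes 49.8% and 60.2% were lower in these comparisons. No member was called in either (limma), with 5 and 1 at an unadjusted p under 0.05, against 0.194% and 0.0177% of all genes called. The share of all genes at the unadjusted threshold is not given here for the comparisons at 30 min. The double deletion against the dpl1 deletion uses no parental array. There 32 of 34 members were lower (43.2% of all genes), with a median difference of -0.18. In that comparison 0 members were called (0.442% of all genes), and 0 had an unadjusted p under 0.05. The near-uniform direction is stated for 30 min only, and at 20 and 25 min members differed in both directions. At 20 min the parental strain and the double deletion averaged 9.52 and 9.73 for SCL1, but 9.29 and 8.96 for PRE4. At 25 min they averaged 7.72 and 8.01 for RPN9, but 9.55 and 8.81 for PRE4. The number of members in each direction at these times is not given here.

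The time of the highest level also differed between strains, as a description. In the parental strain 32 of 34 members were highest at 30 min. In the dpl1 deletion 14 were highest at 30 min and 12 at 25 min. In the double deletion 22 were highest at 20 min, 5 at 25 min and 4 at 30 min. The shares of all genes by strain are not given here, and each level is a mean of 2 arrays. In the parental strain the median change of the members at 30 min was 0.66 and 1.13 on replicates 1 and 2, against 0.66 and 0.72 at 20 min. Against the arrays before heat, the parental strain had 0 members called higher after 5 min (6.93% of all genes), 1 after 10 min (14.7%), 4 after 15 min (19.9%), 14 after 20 min (20.5%), 10 after 25 min (17.3%) and 24 after 30 min (18.5%). The dpl1 deletion had 0 after 5 min (6.77%), 0 after 10 min (15.4%), 10 after 15 min (18.2%), 16 after 20 min (19.8%), 15 after 25 min (18.3%) and 21 after 30 min (17.1%). The double deletion had 0 after 5 min (7.21%), 0 after 10 min (15%), 0 after 15 min (16.8%), 6 after 20 min (18.6%), 2 after 25 min (16.2%) and 1 after 30 min (12.5%). In the double deletion the shares of members called at 25 and 30 min were thus below those of all genes.

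The difference in mean response between the double deletion and the parental strain ran from -1.13 for RPN13 (95% interval -1.88 to -0.37), whose second parental array before heat was the low one, to 0.19 for PRE10 (-0.41 to 0.79). RPN5 (0.13) and BLM10 (0.12) were the other members with a positive difference. RPT3 (-0.64) and PUP1 (-0.52) were, with RPN13, the 3 members whose interval did not include 0 before adjustment, and so lie toward the low end. The mean response of RPT3 was 0.77 ± 0.17 in the parental strain (adjusted p = 0.000625), 0.52 ± 0.17 in the dpl1 deletion (adjusted p = 0.0147) and 0.13 ± 0.17 in the double deletion (adjusted p = 0.575). For PUP1 the values were 0.45 ± 0.16 (adjusted p = 0.0265), 0.32 ± 0.16 (adjusted p = 0.11) and -0.07 ± 0.16 (adjusted p = 0.781). The difference between strains did not pass the adjusted test for any of the 3 genes.

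Before heat no member was called between any pair of strains (limma), and the shares of all genes called were 0.0177%, 0.106% and 0.141% for the dpl1 deletion against the parental strain, the double deletion against the parental strain and the double deletion against the dpl1 deletion. Averaged over all 7 times 0 members were called between the dpl1 deletion and the parental strain (0.0177% of all genes), and 0 between the double deletion and the dpl1 deletion (12.8%). Between the double deletion and the parental strain 1 member was called (19.5% of all genes). That gene was PRE4, a beta subunit, with a difference of -0.38 ± 0.11 (adjusted p = 0.015, 95% interval -0.60 to -0.16), which is 1 of 34 beside 6.77% of all genes called lower.

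PRE4 was at 9.36 and 9.92 in the parental strain after 30 min, at 8.94 and 9.36 in the dpl1 deletion and at 8.89 and 8.90 in the double deletion. Before heat the pairs were 8.56 and 8.35, 8.48 and 8.41, and 8.43 and 8.63, so the strains overlapped before heat, and at 30 min both parental arrays were above both of the double deletion. At 15 min the second parental array, at 8.20, lay below both of the double deletion, at 8.62 and 8.86. With the replicate block within strains PRE4 (adjusted p = 0.00796), PRE7 (-0.29, adjusted p = 0.0164), UMP1 (-0.26, adjusted p = 0.0277) and RPN12 (-0.23, adjusted p = 0.049) were called lower in the double deletion, relative to the parental strain, and RPN2 higher (0.22, adjusted p = 0.044). In that fit 12.3% of all genes were called lower and 21.6% higher, so the members are near or below the share of all genes. Against the dpl1 deletion PRE7 was then called lower (-0.24, adjusted p = 0.0484) and RPN2 higher (0.25, adjusted p = 0.0295), beside 9.85% and 18.4% of all genes. Without the block, leaving out 1 array raised the count against the parental strain to 2 or 3 for 3 parental arrays (second at 15 min, first at 20 and 30 min) and 4 of the double deletion (first at 10, 15 and 20 min, second at 15 min), and the count against the dpl1 deletion to 1 or 2 for 4 first arrays of the double deletion (before heat and at 10, 15 and 20 min).

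Around the complex, 30 genes of its regulation, assembly and substrate delivery were followed. In the mean heat response averaged over the strains 20 of them were called higher (30.7% of all genes) and 2 lower (35.4%). RPN4, the activator of the proteasome genes, was early where the subunits were late. It was at 7.09 and 7.30 before heat in the parental strain, at 9.06 and 9.32 after 5 min and at 8.14 and 9.41 after 30 min. In the dpl1 deletion it was at 7.43 and 7.38, then 9.17 and 9.28, then 7.60 and 8.49 (replicates 1 and 2), and in the double deletion at 7.30 and 7.48, then 9.14 and 9.60, then 6.79 and 8.67. Every array at 5 min lay above every array before heat, while at 30 min the first array of the double deletion was back below its level before heat.

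Averaged over the strains RPN4 had risen by 1.93 ± 0.30 (log2, SE) at 5 min (adjusted p = 1e-05), and its change was 1.68 at 15 min and 0.85 ± 0.30 at 30 min (adjusted p = 0.0168). Its step from 15 to 30 min was -0.83 ± 0.30 (adjusted p = 0.0614, and 0.00745 with the replicate block). The step was also called without the second array at 30 min of any strain or the first dpl1 deletion array at 15 min (adjusted p of 0.00552 to 0.0395). The subunits had a median change of -0.08 at 5 min and their highest median at 30 min. Over the 21 group means the correlation of RPN4 with the members' mean was 0.0425. The array level of RPN4 is that of its transcript, and no protein was measured.

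**Figure D5:**
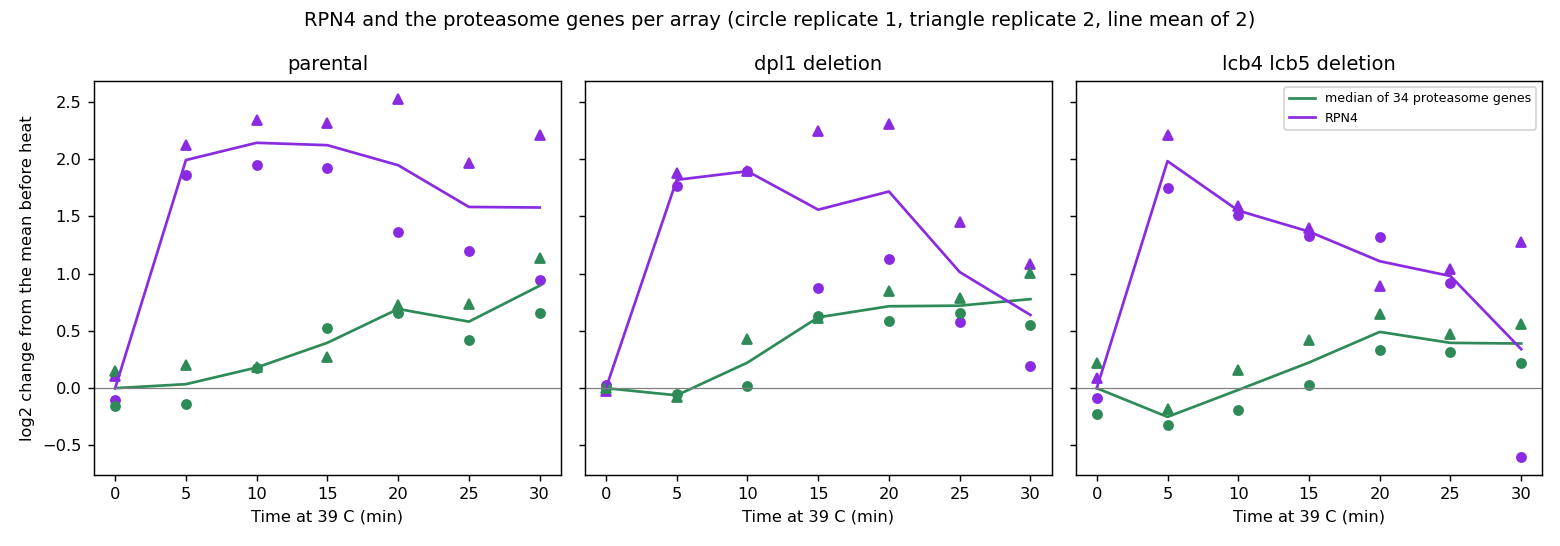
Change from the mean before heat (log2) of RPN4 and of the median of the 34 proteasome genes on each array against time at 39 C in minutes, 1 panel per strain, with circles for replicate 1, triangles for replicate 2 and lines through the mean of 2. RPN4 is near 2 at 5 min in each strain and lower at 30 min, while the proteasome genes are near 0 at 5 min and higher at 30 min.

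The genes whose products mark RPN4 for destruction, the ubiquitin ligase UBR2, its adaptor MUB1 and the conjugating enzyme RAD6, were not called, at 0.34 ± 0.20, 0.09 ± 0.23 and 0.02 ± 0.17 (adjusted p = 0.135, 0.737 and 0.912). UBR2 read lower on replicate 2 than on replicate 1 in all 21 groups, with a mean difference of -0.62, which widens its error in this fit. That UBR2 was not called therefore holds only for the fit without the replicate block. Of the activators known to act on the RPN4 gene, the heat shock factor HSF1 rose by 0.86 ± 0.14 (adjusted p = 9.17e-06) and the oxidative stress factor YAP1 by 0.34 ± 0.12 (adjusted p = 0.0176). The call of YAP1 was lost without the first parental array or the first array of the double deletion before heat. The drug resistance factors PDR1 and PDR3 were at 0.17 ± 0.10 and -0.13 ± 0.16 and were not called (adjusted p = 0.137 and 0.493). PDR1 was called without the second parental array before heat (adjusted p = 0.0333).

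The assembly chaperones of cap and core did not move alike. All 5 chaperones of the base were called higher: TMA17, known as a stress-inducible one, by 2.67 ± 0.20 (adjusted p = 6.64e-12), NAS2 by 1.15 ± 0.11, RPN14 by 0.98 ± 0.18, HSM3 by 0.41 ± 0.14 and NAS6 by 0.35 ± 0.12. The call of NAS6 was lost without the second dpl1 deletion array before heat, and that of HSM3 without the first array before heat of any strain. NAS2 and HSM3 were dim, at 2.42 to 3.28 and 2.92 to 3.65 before heat. The deleted DPL1 averaged 3.37 in its own deletion strain before heat, so the size of these 2 rises is uncertain. TMA17 ran from 7.12 to 8.36 before heat (6 arrays) and was already at 8.49 to 9.45 after 5 min. Of the 4 chaperones of the core, PBA1 rose by 0.49 ± 0.13 (adjusted p = 0.00174) and POC4 fell by 1.46 ± 0.14 on the log2 scale (adjusted p = 9.39e-10). The partner of PBA1, ADD66, was at 0.28 ± 0.19 and that of POC4, IRC25, at -0.10 ± 0.16, and neither was called (adjusted p = 0.192 and 0.588). On replicate 2 ADD66 read higher in 19 of the 21 groups and IRC25 in 20, by 0.51 and 0.45 on average. This widens their errors in the fit without the replicate block, to which these values belong.

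Of 5 proteins that bind the proteasome, 4 were called higher. The ubiquitin ligase HUL5 rose by 0.89 ± 0.15, the deubiquitinase UBP6 by 0.65 ± 0.09 and ECM29, which holds core and cap together, by 0.92 ± 0.13 (adjusted p = 9.94e-06, 4e-07 and 5.4e-07). SEM1, a small lid subunit outside the 34, was at 0.40 ± 0.16 (adjusted p = 0.0299), a call lost without either parental array, the second of the dpl1 deletion or the first of the double deletion before heat. CIC1, described both as a proteasome adaptor and as a factor of ribosome assembly, fell by 3.46 ± 0.26 on the log2 scale (adjusted p = 8.07e-12). After 10 min it read 2.63 to 4.13, where the deleted DPL1 averaged 2.83 in its own deletion strain. The size of the fall is therefore uncertain.

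Of 8 genes that deliver substrates, 7 were called higher. The polyubiquitin gene UBI4 rose most, by 3.04 ± 0.15 (adjusted p = 1.32e-15), and the shuttle protein DDI1 rose by 1.17 ± 0.14 (adjusted p = 7.54e-08). The shuttle protein DSK2 rose by 0.58 ± 0.13 (adjusted p = 0.000271), whereas RAD23, the third shuttle, was at -0.10 ± 0.15 and was not called (adjusted p = 0.575). The segregase CDC48 rose by 0.61 ± 0.11, and its cofactors UFD1, NPL4 and SHP1 by 0.78 ± 0.16, 0.91 ± 0.08 and 0.58 ± 0.10 (adjusted p of 3.38e-10 to 0.000155).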

How the data were processed

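Total RNA from 42 yeast samples was labelled with biotin and hybridised to single-colour Affymetrix arrays, per the labels' protocols. The values used are log2 signals as deposited by the authors, made with RMA per the submitters' processing notes. Its version and the genome build are not given in the sources used here, and the values, which run from 1.36 to 14.7, were taken as base 2 from that range. RMA's quantile step gives arrays nearly equal distributions (medians 5.61 to 5.80). The number of arrays limits the precision.

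Of 9275 probe sets that are not controls, 6504 have 1 gene symbol, 328 several and 2443 none listed. The probe set with the highest mean was used for each of 5656 genes (315 genes have more than 1; among the members PRE3, RPT5 and BLM10), with no filter on dim signals. A mean for each of 21 groups was fitted by lmFit and eBayes of limma (3.58.1, under R 4.3.3; 21 residual degrees of freedom, two-sided, Benjamini-Hochberg over 5656 genes, calls at an adjusted p under 0.05). The percentages of all genes given beside counts of members are the genes called, or not overlapping, in the same comparison.

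The members and lists were chosen with earlier results of these data known. Genes with full values were, per subcomplex, the 2 highest and the lowest in mean heat response, the catalytic subunits, UMP1, BLM10 and members called between strains; RPN4 and its lists were chosen by function, and RPN13, RPT4 and the like were named after their values were seen.

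Replicate numbers come from the labels. For arrays with the same number, the deviation from the group mean correlated by more than 0.1 in all 210 pairs of groups when every probe set was used (median 0.524), and in 209 pairs when only tested genes were. The main calls come from the fit without the replicate number, which leaves this shared offset in the residual spread. A fit with the number as a block, which pairs the arrays, was therefore set beside it. On simulated data with 200 of 5656 genes changed, changes of 0.5, 1 and 2 (log2) were recovered in 58.2%, 92.5% and 100% of genes for the mean heat response averaged over strains, and in 11.9%, 67.2% and 95.5% for that of the parental strain. Genes in the simulation varied independently, unlike genes of 1 complex. Alternatives were an adjusted p under 0.01, centring on array medians or hybridisation controls, cyclic loess, a filter on the dimmest 25% of genes, averaged probe sets, array weights, trended and robust moderation, the replicate block and each array left out in turn.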

Additional observations from a re-analysis of the deposited data

How the results depend on the processing

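Precision is set by 2 arrays per group, of which the arrays before heat enter every heat comparison. Centring on the hybridisation controls, which are far noisier than the genes, lowered the counts of members called most: to 5 in the mean heat response averaged over strains (26 as reported), to 0 in each single strain, to 0 at 10 and 15 min, 12 at 20 min and 1 at 25 min, to 0 in both steps and to 0 for the double deletion against the parental strain, while the core and cap medians became 0.65 and 0.61. At an adjusted p under 0.01 the counts were 15 for the averaged mean response, 5, 4 and 0 in the parental strain, the dpl1 deletion and the double deletion, 0 at 10 min, 9 at 15 min, 16 at 25 min, 14 from 5 to 15 min, 0 from 15 to 30 min and 0 for the double deletion against the parental strain. Cyclic loess gave 5 in the parental strain, 7 in the dpl1 deletion, 0 at 10 min, 3 for the double deletion against the parental strain, and core and cap medians of 0.33 and 0.29. Median centring gave 4 for the double deletion against the parental strain, 0 from 15 to 30 min and a cap median of 0.41. Array weights gave 0 from 15 to 30 min. The mean of a gene's probe sets gave 2 at 10 min and, for the double deletion, 2 against the parental strain and 1 against the dpl1 deletion. Without the dimmest 25% of genes 1 other pathway gene was called lower in place of 2.

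With the replicate block within strains and across strains the counts were 21 and 20 in the parental strain, 23 and 23 in the dpl1 deletion, 5 and 5 in the double deletion, 4 and 4 at 10 min, 5 and 6 from 15 to 30 min, 5 and 4 for the double deletion against the parental strain, and 2 and 1 against the dpl1 deletion. The block moved no other count by more than 1.5 times, except that 2 members were called lower at 5 min.

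Leaving out 1 array at a time gave 14 to 27 members in the averaged mean response, 3 to 15 in the parental strain, 3 to 15 in the dpl1 deletion and 0 to 2 in the double deletion. It gave 0 to 2 at 10 min, 8 to 24 at 15 min, 24 to 28 at 20 min, 17 to 27 at 25 min, 26 to 32 at 30 min, 15 to 26 from 5 to 15 min and 0 to 3 from 15 to 30 min. For the double deletion it gave 1 to 3 against the parental strain and 0 to 2 against the dpl1 deletion. The medians ran from 0.34 to 0.45 for the core and 0.30 to 0.46 for the cap, and 17 to 20 other pathway genes were called higher. Of 3946 values of 76 single-gene results, 3847 kept their side of the threshold, 81 lost the call and 18 gained it. None changed sign with a call in either fit. Sign changes of values uncalled in both fits are counted among the 3847. One was the mean response of PRE9, at 0.06, which was -0.03 without the first array of the double deletion before heat. The causes were not tested.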
